A study of Mus musculus with 10 samples.

Results

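The olfactory receptor genes of chromosome 2 were examined as genes that mouse skeletal muscle is not known to use. Their definition came from the annotation alone. It took genes on chromosome 2 of the mouse genome build GRCm38 with a curated RefSeq transcript (accession type NM_). Their symbol had to be Olfr followed by a digit. The rule found 287 genes among 21000 NM_ genes. The rule itself uses no measured value, but the family was chosen with earlier results of these data known. RNA was not measured in these files, so the silence of the 287 genes in this muscle is an assumption and was not tested.

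The study addressed how the glucocorticoid receptor (GR) and lysine-specific demethylase 1 (LSD1) act together in muscle, by chromatin immunoprecipitation sequencing (ChIP-seq). Skeletal muscle of C57BL/6J mice, labelled as 10 weeks old, came from fed mice or from mice starved for 24 h. The labels name no modified allele. The study states a minimum number of mice per condition and repeated experiments, but 1 list per group was analysed here, and how many mice went into a library was not given in the sources used here. The 10 libraries were GR, LSD1, histone H3 monomethylated at lysine 9 (H3K9me1), histone H3 dimethylated at lysine 9 (H3K9me2) and input chromatin, each once from fed and once from starved mice. GR is a nuclear receptor that binds DNA when it holds glucocorticoid, and LSD1 removes methyl groups from histone H3. Both GR libraries carried one library code and both LSD1 libraries another. Each mark had its fed library under the code of GR and its starved library under that of LSD1, so condition and code cannot be told apart for the marks. Since a group was a single library, conditions were not tested against each other, and every difference describes these libraries.

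Olfactory receptors are G protein-coupled receptors that bind odorants on the cilia of olfactory sensory neurons. Their genes stand in large clusters, have a coding region that is usually a single exon, and are chosen so that a neuron transcribes a single allele of a single receptor gene. In olfactory neurons the clusters are packed in heterochromatin that carries trimethylated H3K9, and LSD1 is known to take part in the switching on of the chosen allele. H3K9me1 and H3K9me2 are lower methylation states of the same lysine.

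The 287 genes formed 3 clusters, separated by more than 1 Mb. Cluster 1 held 28 genes from Olfr338 to Olfr368 (chr2:36376778-37332732). Cluster 2 held 222 genes from Olfr987 to Olfr1274 (chr2:85330967-90401674). Cluster 3 held 37 genes from Olfr1275 to Olfr1318 (chr2:111230853-112157007). The genes were short, with a median length of 0.943 kb, and neighbouring transcription start sites (TSSs) lay a median of 19.9 kb apart. The windows of 30 kb around their TSSs merged into 15 stretches of 6.87 Mb in all, or 0.260% of the sequenced genome. Only 3 other NM_ genes had a TSS there (Pdcl, Pramel6 and A26c3).

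Few peaks carried the result, and the sequences of the most informative ones are given here as the plus strand of GRCm38. The first 3 are the only LSD1 peak of fed muscle within 30 kb of any of the 287 genes, and the only GR or LSD1 peaks at a promoter, both from starved muscle. Capitals mark bases that the assembly masks as repeats, and these 3 peaks hold none.
LSD1 fed, 14.3 kb upstream of Olfr1080, chr2:86572430-86572484: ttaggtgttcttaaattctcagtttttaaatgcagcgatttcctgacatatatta
LSD1 starved, promoter of Olfr988, chr2:85354218-85354302: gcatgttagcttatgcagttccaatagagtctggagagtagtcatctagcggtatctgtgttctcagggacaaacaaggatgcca
LSD1 starved, promoter of Olfr140, chr2:90053189-90053347: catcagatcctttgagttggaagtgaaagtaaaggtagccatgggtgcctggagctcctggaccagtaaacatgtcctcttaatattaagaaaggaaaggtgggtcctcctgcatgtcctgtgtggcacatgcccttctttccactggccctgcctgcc

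The peaks of the methylation lists at promoters of the receptor genes were short, and their repeat content differed between peaks. The 17 of H3K9me2 fed were 50 to 316 bp long, with a median of 128 bp, and only 1 of them was repeat-masked over more than 50% of its length. None of these 17 is printed. The following are both promoter peaks of H3K9me1 fed, the H3K9me1 starved promoter peak with the highest fold enrichment over input and the only promoter peak of H3K9me2 starved, shown for their length and repeat content. The capitals again mark repeat-masked bases.
H3K9me1 fed, promoter of Olfr1080, chr2:86558931-86558979: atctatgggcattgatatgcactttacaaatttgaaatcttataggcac
H3K9me1 fed, promoter of Olfr1076, chr2:86507953-86508073: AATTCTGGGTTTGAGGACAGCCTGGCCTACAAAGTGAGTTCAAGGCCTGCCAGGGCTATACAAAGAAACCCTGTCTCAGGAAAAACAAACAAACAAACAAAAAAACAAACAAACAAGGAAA
H3K9me1 starved, promoter of Olfr1302, chr2:111779570-111779724: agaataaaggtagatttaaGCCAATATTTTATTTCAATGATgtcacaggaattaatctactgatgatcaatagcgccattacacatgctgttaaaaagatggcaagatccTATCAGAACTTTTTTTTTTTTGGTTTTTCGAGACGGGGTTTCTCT
H3K9me2 starved, promoter of Olfr1200, chr2:88768934-88769002: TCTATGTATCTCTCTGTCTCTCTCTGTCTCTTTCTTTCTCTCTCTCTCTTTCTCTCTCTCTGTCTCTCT

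The promoters of the olfactory receptor genes were almost free of GR and LSD1 peaks. A promoter was taken as the sequence from 1 kb upstream to 100 bp downstream of a TSS, and a peak was counted where its midpoint fell inside. In fed muscle 0 of the 287 genes had a GR peak at the promoter, against 15.1% of all NM_ genes. In starved muscle 0 of 287 had one, against 26% of all genes. For LSD1 the count was 0 of 287 in fed muscle, against 25.4% of all genes, and 2 of 287 in starved muscle, against 18% of all genes. A count of 0 of 287 allows a share of up to 1.05% by the limit of 3 counts, and its exact 95% interval ends at 1.28%. The share of LSD1 starved was 0.697%, with an exact (Clopper-Pearson) interval from 0.0845% to 2.49%, so all 4 lists lay below the background of all genes. These intervals cover counting error only, and they are too narrow wherever neighbouring genes share a peak.

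The 2 promoters with an LSD1 peak in starved muscle were those of Olfr988 and Olfr140. The peak of Olfr988 lay 0.336 kb upstream of its TSS, was 85 bp long and had a 3.27-fold enrichment over input with a q-value of 0.0748. The peak of Olfr140 lay 0.946 kb upstream, was 159 bp long and had a 3.86-fold enrichment with a q-value of 0.0281. The median fold of the list was 3.44, above the peak of Olfr988 and below that of Olfr140, and neither peak passed a q-value of 0.01. Neither was overlapped by a peak of any other list. Within 30 kb Olfr988 had 2 LSD1 starved peaks, 1 H3K9me1 starved peak and 7 H3K9me2 fed peaks, and no peak of the other 5 lists. Olfr140 had 1 LSD1 starved peak, 2 H3K9me1 starved peaks and 2 H3K9me2 fed peaks, and again none of the others.

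**Figure D1:**
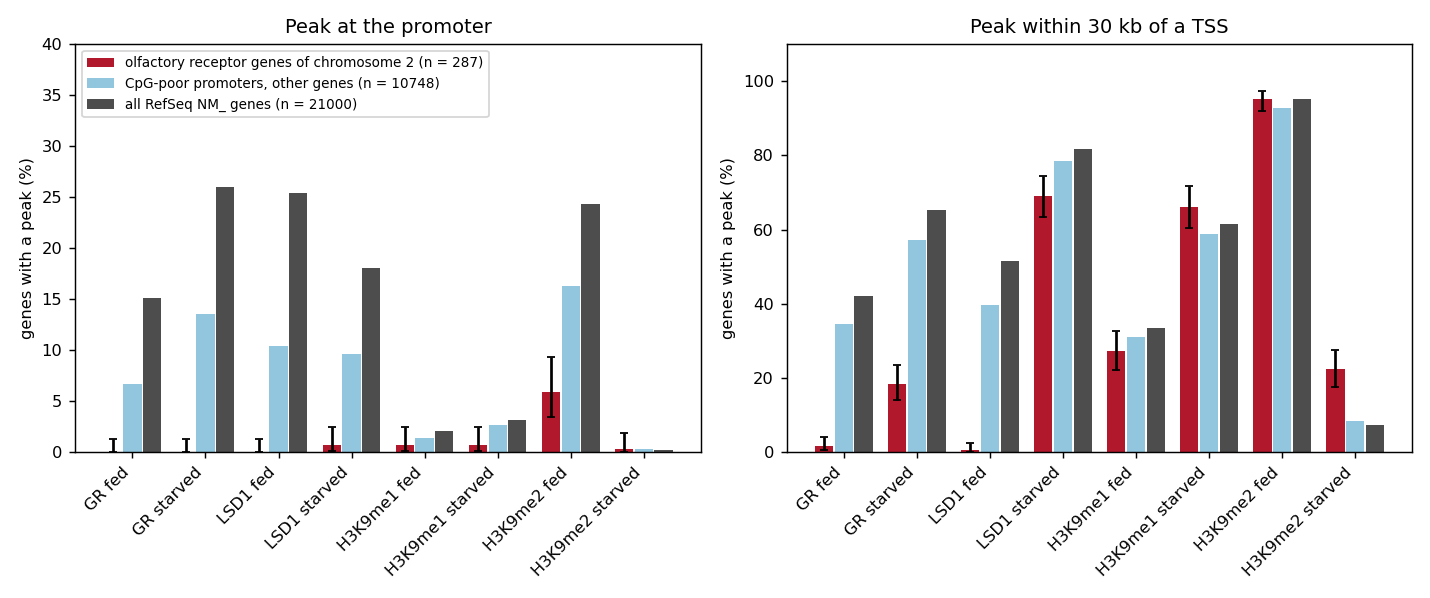
Share of genes (%) with a peak midpoint at the promoter (left) or within 30 kb of a TSS (right) in the 8 lists, for the 287 olfactory receptor genes (red, bars with exact 95% binomial intervals), 10748 other genes with CpG-poor promoters (blue) and all 21000 NM_ genes (grey). At promoters the red bars of GR fed, GR starved and LSD1 fed are at 0, and within 30 kb the red bar of H3K9me2 starved (22.3%) is above the grey one (7.45%).

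Of the methylation lists, H3K9me2 of fed muscle was the one with more than 2 peaks at the promoters. It marked 17 of 287 promoters, or 5.92% (95% interval from 3.49% to 9.31%), against 24.4% of all genes. The H3K9me1 lists marked 2 promoters each, against 2.08% of all genes in fed and 3.2% in starved muscle. H3K9me2 of starved muscle marked 1 promoter, against 0.19% of all genes. The interval of 2 genes reached 2.49% and that of 1 gene ran from 0.00882% to 1.93%, so H3K9me1 fed and H3K9me2 starved could not be distinguished from the background at these counts. H3K9me1 starved and H3K9me2 fed lay below it. For H3K9me1 starved this rested on 2 genes. Its count was 4 when any base of a peak was counted, and 10 with a promoter that reached 1 kb downstream. Its position below the background is therefore not shown beyond the main setting.

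Over the 8 lists, 23 of the 287 genes had a promoter peak in at least 1 list, or 8.01%, against 51.0% of all genes. Olfr1076 was the only one with a promoter peak in more than 1 list. Its H3K9me2 fed peak had the highest fold of the 17 promoter peaks, at 4.06, and its H3K9me1 fed peak a fold of 3.47. The peaks did not overlap and lay 0.081 kb and 0.448 kb upstream of the TSS. In the H3K9me1 fed list the other promoter peak, that of Olfr1080, was 49 bp long with a fold of 4.07. In the H3K9me1 starved list the promoter peaks were those of Olfr1302, with a fold of 4.20, and Olfr1219, with a fold of 3.85. The single H3K9me2 starved promoter peak, that of Olfr1200, had a fold of 3.83 with a q-value of 0.0567 and was repeat-masked over 100% of its length. Folds of different lists are not on a common scale and were not compared.

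All-gene promoters stood out from their surroundings, whereas those of the olfactory receptor genes did not. In the LSD1 fed list, all genes had 22.6 peaks per 100 genes per kb in the promoter and 1.43 between 5 kb and 1 kb upstream. The olfactory receptor genes had 0 in both. In the GR fed list the corresponding values of all genes were 12.6 and 1.01, and those of the olfactory receptor genes were 0 and 0.0871. For H3K9me2 fed, all genes rose from 8.91 to 22.2 at the promoter, whereas the olfactory receptor genes had 5.66 upstream and 5.38 at the promoter. LSD1 starved went the other way around in the olfactory receptor genes, with 2.93 between 10 kb and 5 kb upstream, 1.39 between 5 kb and 1 kb and 0.634 at the promoter, while all genes reached 15.8 there. The value of 0.634 rests on 2 peaks.

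**Figure D2:**
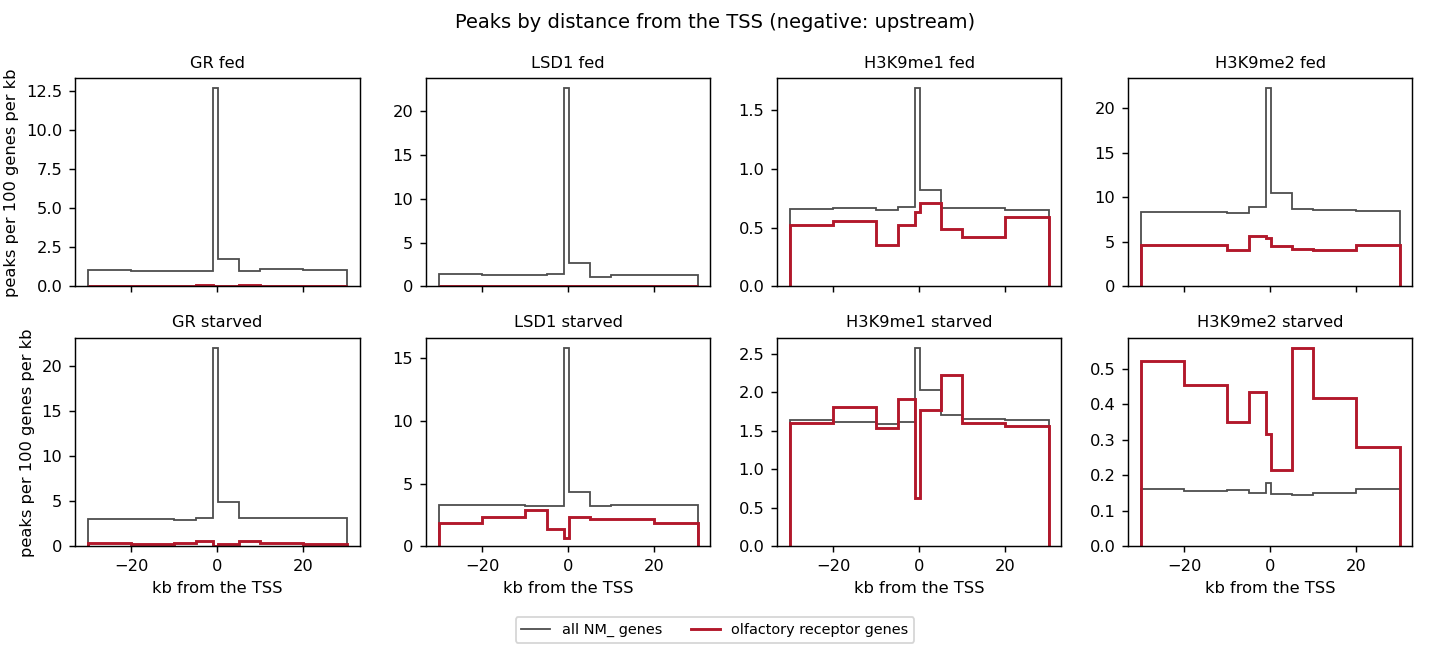
Peaks per 100 genes per kb against distance from the TSS (kb, negative upstream, bins from 1.1 to 10 kb wide, 1 TSS per gene) in the 8 lists, for the olfactory receptor genes (red) and all NM_ genes (grey). The grey lines of all lists but H3K9me2 starved have a clear maximum in the promoter bin, and no red line does.

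Within 30 kb the lists fell into separate patterns. GR fed reached 5 of the 287 genes (1.74%, against 42.2% of all genes) and LSD1 fed 2 (0.697%, against 51.5%). GR starved reached 53 genes (18.5%, against 65.2%). LSD1 starved, in contrast, reached 198 genes (69.0%, against 81.8%). H3K9me1 fed reached 78 genes (27.2%, against 33.6%) and H3K9me1 starved 190 (66.2%, against 61.6%). H3K9me2 fed reached 273 genes, a share of 95.1% that equalled the 95.1% of all genes. H3K9me2 starved reached 64 genes (22.3%, against 7.45%). The exact 95% interval lay below the background for both GR lists, both LSD1 lists and H3K9me1 fed, where it ended at 32.7%. It held the background for H3K9me1 starved and H3K9me2 fed. It lay above the background for H3K9me2 starved only, from 17.6% to 27.6%. With peaks limited to a q-value of 0.01 or less, however, H3K9me2 starved reached 0 of the 287 genes. The share of all genes at that limit was not counted. A peak in the merged windows was shared by between 2 and 2.69 of the genes on average, so these shares rest on fewer independent peaks than genes.

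Each peak was then counted once. In the 6.87 Mb around the olfactory receptor genes there were 3 GR fed peaks, 22 GR starved peaks and 1 LSD1 fed peak. Their density was 0.0821 (GR fed), 0.225 (GR starved) and 0.0232 (LSD1 fed) times that of the genome, with upper 95% Poisson limits of 0.240, 0.341 and 0.129. LSD1 starved had 148 peaks there at 0.863 times the genome density, with limits from 0.730 to 1.01. The 35 H3K9me1 fed peaks and the 109 H3K9me1 starved peaks had ratios of 0.958 and 1.11, and both intervals held 1. H3K9me2 fed was less dense than in the genome, with 309 peaks and a ratio of 0.695 (0.620 to 0.777). H3K9me2 starved was denser, with 26 peaks and a ratio of 1.53 (1.00 to 2.25), and the lower limit just reached 1. None of these 26 peaks had a q-value of 0.01 or less, so with that limit the ratio was 0. At that limit 1001 peaks of the list remained in the genome, and the windows made up 0.260% of it. The ratio of 0 thus rests on very few expected peaks and does not exclude an equal density.

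**Figure D3:**
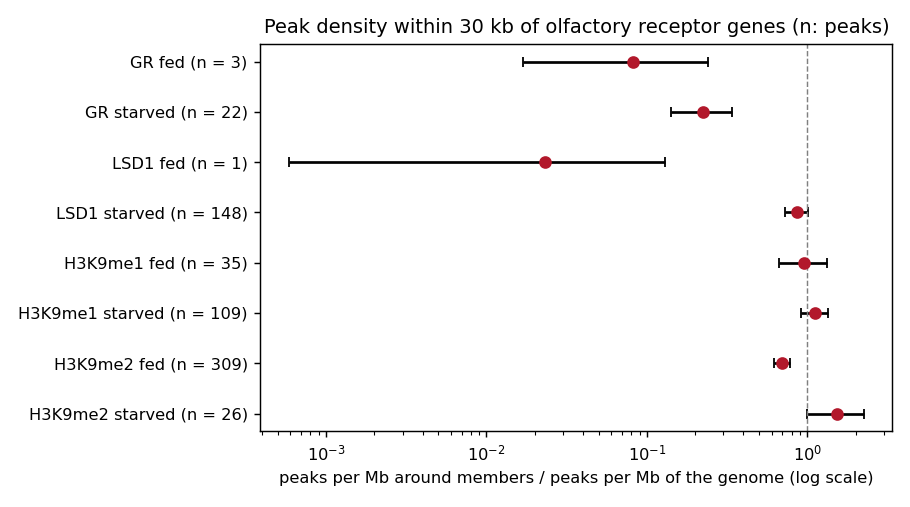
Peaks per Mb within 30 kb of the olfactory receptor genes divided by peaks per Mb of chromosomes 1 to 19, X and Y (log axis), with 95% Poisson intervals, which cover counting error only; n is the number of peaks around the genes. LSD1 fed (0.0232), GR fed (0.0821) and GR starved (0.225) lie far left of the dashed line of equal density. The other 5 lists lie between 0.695 and 1.53. The highest value (H3K9me2 starved) becomes 0 at a q-value of 0.01, a limit that left 1001 peaks of that list in the genome.

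The fed lists of GR and LSD1 were concentrated at promoters, which bears on the genome values used as a reference. Over all genes, promoters had 21.5 times the genome density of GR fed peaks and 32.3 times that of LSD1 fed peaks, but 5.83 times that of LSD1 starved peaks and 3.23 times that of H3K9me2 fed peaks. The nearest peak showed the same contrast. The median distance from an olfactory receptor gene to the nearest GR fed peak was 620 kb, against 46.8 kb over all genes. It was 621 kb against 26.6 kb for LSD1 fed, and 99.1 kb against 9.91 kb for GR starved. The distances were much closer for LSD1 starved, 16.8 kb against 8.28 kb, and for H3K9me1 starved, 19.5 kb against 20.97 kb. For H3K9me2 starved the nearest peak was nearer to the olfactory receptor genes by the widest margin, 76.0 kb against 303 kb.

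The 3 GR peaks of fed muscle lay apart from each other, all outside the promoter window. The first (chr2:37358697-37358921, fold 2.58, q-value 0.00144) was 27.1 kb downstream of the TSS of Olfr368, at the outer end of cluster 1. It overlapped exon sequence of Pdcl, a phosducin-like regulator of G protein assembly. The TSS of Pdcl (chr2:37359332) lay much nearer to this peak than that of Olfr368. It was the only GR fed peak around the receptor genes that was also in the GR starved list. The second (chr2:87109590-87110092, fold 2.85, q-value 0.0358) was 1.46 kb upstream of the RefSeq TSS of Olfr259. The third (chr2:87134293-87134415, fold 3.49, q-value 0.00104) was 5.88 kb downstream of the TSS of Olfr1110. In the GENCODE M21 annotation, which gives many receptor genes longer untranslated exons, the second and the third overlapped untranslated sequence of Olfr259 and Olfr1110. The median fold of the whole GR fed list was 3.29, above 2 of these 3 peaks.

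The LSD1 fed list held a single peak in the 3 clusters, printed above, at 14.3 kb upstream of Olfr1080 and also within 30 kb of Olfr1082. It was 55 bp long, the shortest length in its list, with a fold of 3.92 and a q-value of 0.0263. No peak of another list overlapped it. Olfr1080 also had 4 LSD1 starved peaks, 1 H3K9me1 fed peak at its promoter, 1 H3K9me1 starved peak and 3 H3K9me2 fed peaks within 30 kb, and no GR or H3K9me2 starved peak.

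The GR starved peaks of the clusters held more repeat sequence than those of the whole list. Their folds ran from 1.97 to 3.04 with a median of 2.67, close to 2.70 in the whole list, and 4 of 22 passed a q-value of 0.01, or 18.2%, against 34.6% of the whole list. None had a fold of 5 or more, but at the 1.82% of the whole list none would be expected among 22 peaks. A median of 52.6% of their length was repeat-masked, against 7.24% in the whole list. The peak with the highest fold (3.04, q-value 0.00471) lay 13.3 kb downstream of the TSS of Olfr1084. The LSD1 starved peaks of the clusters had a median fold of 3.45, close to 3.44 in the whole list, and a median masked share of 63.9%, against 9.77%. H3K9me2 starved peaks had a median masked share of 62.4%, against 31.7%. The clusters themselves were richer in repeats than the genome, with 50.5% against 36.4% of bases masked, and 80.8% against 85.9% of their 50-base words occurred only once. Per Mb of sequence whose 50-base words occurred once, the density ratios stayed low for GR fed (0.0873), GR starved (0.239) and LSD1 fed (0.0247). The part of repeats in the remaining peaks was not tested.

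Overlaps between lists were rare around the receptor genes. Of the 3 GR fed peaks 1 overlapped a GR starved peak (33.3%, against 65.9% in the whole list), and 0 overlapped an LSD1 fed peak (against 48.2%). Of the 22 GR starved peaks 0 overlapped an LSD1 fed peak (against 22.9%) and 1 overlapped an LSD1 starved peak (4.55%, against 14.6%). That peak, 8.52 kb downstream of the TSS of Olfr1023, was the only stretch with peaks of 4 lists. GR starved, LSD1 starved, H3K9me1 starved and H3K9me2 fed had folds of 2.95, 5.95, 5.01 and 5.17 there, and those of LSD1 starved and H3K9me2 fed were the highest of their lists around the receptor genes. The GR starved peak was fully repeat-masked, and 51.8% of the 50-base words that start in it occurred once in the genome. In the 51 bp common to the 4 lists, which is the whole H3K9me2 fed peak, that share was only 23.5%. The GR starved peak is shown because GR and LSD1 peaks met only here, with the 51 bp common to the 4 lists in capitals.
GR starved, near Olfr1023, chr2:85895268-85895379: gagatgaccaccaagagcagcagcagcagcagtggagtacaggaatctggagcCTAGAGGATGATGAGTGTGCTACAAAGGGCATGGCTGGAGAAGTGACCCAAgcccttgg

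A further GR starved peak, 5.48 kb upstream of Olfr1274 and chosen after its values were seen, had the lowest fold of the 22 (1.97) but a q-value of 0.00112, and overlapped an H3K9me2 fed peak. The peaks were also searched for the glucocorticoid response element (GRE), the inverted repeat bound by GR dimers. With up to 1 mismatch allowed, 0 of 3 GR fed, 0 of 22 GR starved, 0 of 1 LSD1 fed and 0 of 148 LSD1 starved peaks held a match on either strand. Such matches were rare in the whole lists too, at 2.17% of GR fed, 0.712% of GR starved, 0.392% of LSD1 fed and 0.0636% of LSD1 starved peaks, which for this few peaks comes to less than 1 peak in each list.

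The other peaks with the highest fold in their list around the receptor genes were those of the marks. H3K9me1 fed reached a fold of 5.30 at 3.23 kb downstream of the TSS of Olfr1281, in a 49-bp peak. H3K9me1 starved reached 5.78 at 16.3 kb upstream of Olfr1082, where an LSD1 starved peak overlapped it. H3K9me2 starved reached 4.46 at 7.08 kb downstream of the TSS of Olfr1015. All 3 were 49 bp long, the shortest length of their lists.

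Between fed and starved muscle, the set of receptor genes with a peak within 30 kb differed for each target. For GR, 1 gene had a peak in both lists, 4 in fed only, 52 in starved only and 230 in neither. The gene with both was Olfr368, through overlapping peaks that lay at exon sequence of Pdcl. For LSD1, 2 genes had a peak in both, 0 in fed only, 196 in starved only and 89 in neither. For H3K9me1 the counts were 50 in both, 28 in fed only, 140 in starved only and 69 in neither. For H3K9me2 they were reversed, with 58 in both, 215 in fed only, 6 in starved only and 8 in neither. The share of receptor genes with neither was 80.14% for GR, against 32.4% of all genes, and 31.01% for LSD1, against 14.11%. It was 24.04% for H3K9me1, against 27.25%, and 2.79% for H3K9me2, against 4.66%. Genes with both made up 39.84% (GR), 47.43% (LSD1), 22.46% (H3K9me1) and 7.2% (H3K9me2) of all genes. The same order of fed-only and starved-only counts was found over all 21000 genes. There the counts were 494 against 5335 for GR, 863 against 7213 for LSD1, 2341 against 8221 for H3K9me1 and 18458 against 52 for H3K9me2. List sizes differed in the same direction, from 14077 to 37627 peaks for GR, 16577 to 66030 for LSD1, 14071 to 37781 for H3K9me1, and 171120 down to 6529 for H3K9me2. The LSD1 starved list as deposited was many times longer than the one in the text of the study, and was longer rather than shorter than the fed list. It may be another version, and every LSD1 starved value here rests on the list as deposited. The depth of the libraries is unknown, and the number of peaks called, the condition and, for the marks, the library code cannot be told apart.

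The genes differed in how many lists reached them. No gene had a peak within 30 kb in all 8 lists or in 7, and none was without a peak. There were 8 genes with peaks of 6 lists, 18 with 5, 55 with 4, 107 with 3, 85 with 2 and 14 with 1. The number of lists per gene was not counted over all genes, so these counts describe the receptor genes only. H3K9me2 fed alone reached 95.1% of the receptor genes and 95.1% of all genes. GR and LSD1 were missing altogether within 30 kb of 72 genes, or 25.1%, against 10.4% of all genes. The first 5 genes by position with 6 lists were Olfr368, Olfr1082, Olfr259, Olfr1135 and Olfr1136.

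Olfr368 had 1 GR fed, 1 GR starved, 1 LSD1 starved, 2 H3K9me1 starved, 2 H3K9me2 fed and 2 H3K9me2 starved peaks, and no LSD1 fed or H3K9me1 fed peak. Olfr1082 had 1 GR starved, 1 LSD1 fed, 4 LSD1 starved, 1 H3K9me1 fed, 1 H3K9me1 starved and 1 H3K9me2 fed peak, and no GR fed or H3K9me2 starved peak. Olfr259 had 2 GR fed, 1 LSD1 starved, 1 H3K9me1 fed, 1 H3K9me1 starved, 4 H3K9me2 fed and 1 H3K9me2 starved peak, and lacked GR starved and LSD1 fed. A fed GR or LSD1 peak was thus among the lists of these 3 genes. Olfr1135 and Olfr1136 were reached by the same 6 lists, namely GR starved, LSD1 starved and all 4 lists of the marks. Both had 1 LSD1 starved, 2 H3K9me1 fed, 1 H3K9me2 fed and 1 H3K9me2 starved peak, and they differed in GR starved (2 and 1) and H3K9me1 starved (1 and 3).

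At the other end, the first 5 genes by position with a single list were Olfr345, Olfr1034, Olfr1098, Olfr1099 and Olfr1181. All 5 had H3K9me2 fed peaks alone, with 1, 4, 1, 1 and 2 peaks. Their nearest LSD1 starved peak was 33.4, 51.5, 32.7, 33.2 and 30.5 kb away, just past the window for all but Olfr1034. A slightly wider window would have added that list to 4 of the 5.

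**Figure D4:**
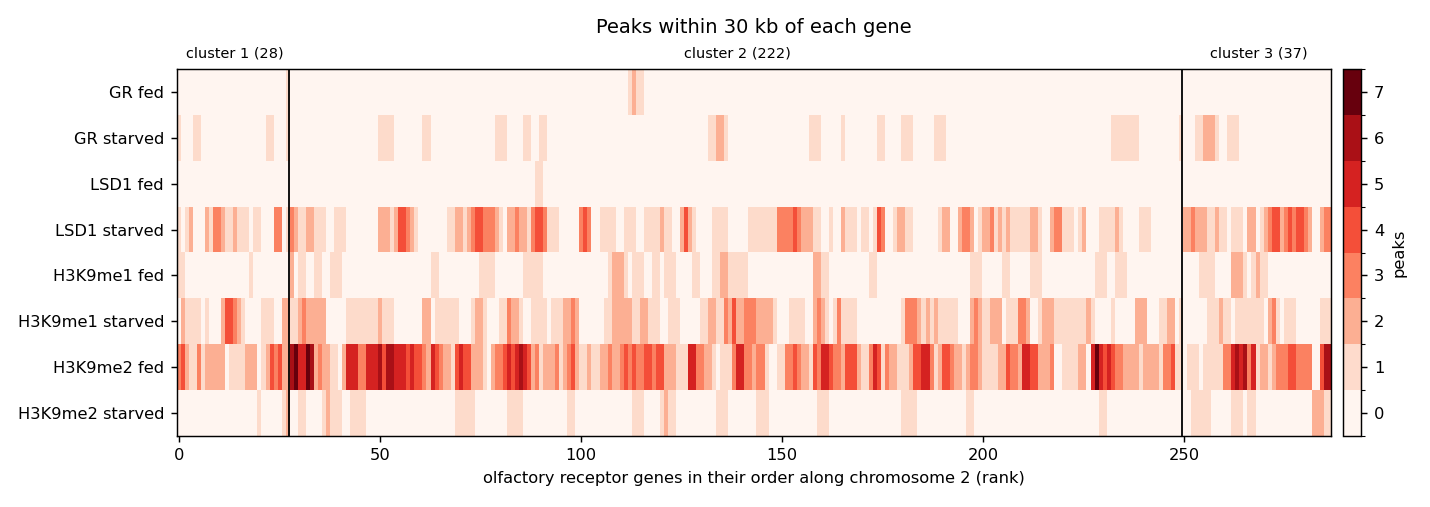
Number of peaks within 30 kb of a TSS for each of the 287 olfactory receptor genes (columns, in their order along the chromosome, with black lines between the 3 clusters) in the 8 lists (rows), from 0 (palest) to 7 (darkest). The rows of GR fed and LSD1 fed are pale but for 5 and 2 genes, and H3K9me2 fed is coloured in 273 genes.

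The clusters were compared by their peaks per Mb, without a test. GR fed had 1.04 peaks per Mb in cluster 1, 0.403 in cluster 2 and 0 in cluster 3, all below the 5.32 of the genome. GR starved had 4.16, 3.02 and 3.15 per Mb, against 14.2 in the genome. LSD1 starved varied more, with 16.7, 20.4 and 32.6 per Mb against 24.9 in the genome, and reached 32 of the 37 genes of cluster 3. H3K9me1 fed had 2.08, 5.64 and 5.26 per Mb against 5.31 in the genome, and H3K9me1 starved 15.6, 16.9 and 10.5 against 14.3. H3K9me2 fed had 34.4, 47.1 and 44.1 per Mb, below the 64.6 of the genome in each cluster. H3K9me2 starved had 4.16, 3.22 and 6.31 per Mb, above the 2.47 of the genome in each cluster, from 4, 16 and 6 peaks.

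Peak density of most lists changed at or near the borders of the clusters. Peaks were counted across the 6 outer edges of the 3 clusters. In the 1 Mb outside an edge GR fed had 11.3 peaks per Mb, and 0.667 in the first 250 kb inside. LSD1 fed had 9.5 outside and 0 in the first 250 kb inside. GR starved fell from 23.3 to 5.33. H3K9me2 fed was at 88.8 outside and 43.3 inside, and LSD1 starved at 33.2 and 21.3. H3K9me2 starved went the other way, from 1.5 outside to 5.33 inside, on 9 and 8 peaks. H3K9me1 had 6.17 per Mb outside and 3.33 inside in fed muscle, on 37 and 5 peaks, and 15.5 and 14 in starved muscle. In the 250 kb next to the edge on the outside GR fed was already at 4.67 and GR starved at 12.7, whereas LSD1 fed was at 8.67. H3K9me1 stood there at 4.67 in fed and 10.7 in starved muscle, so it had no clear drop at the border.

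**Figure D5:**
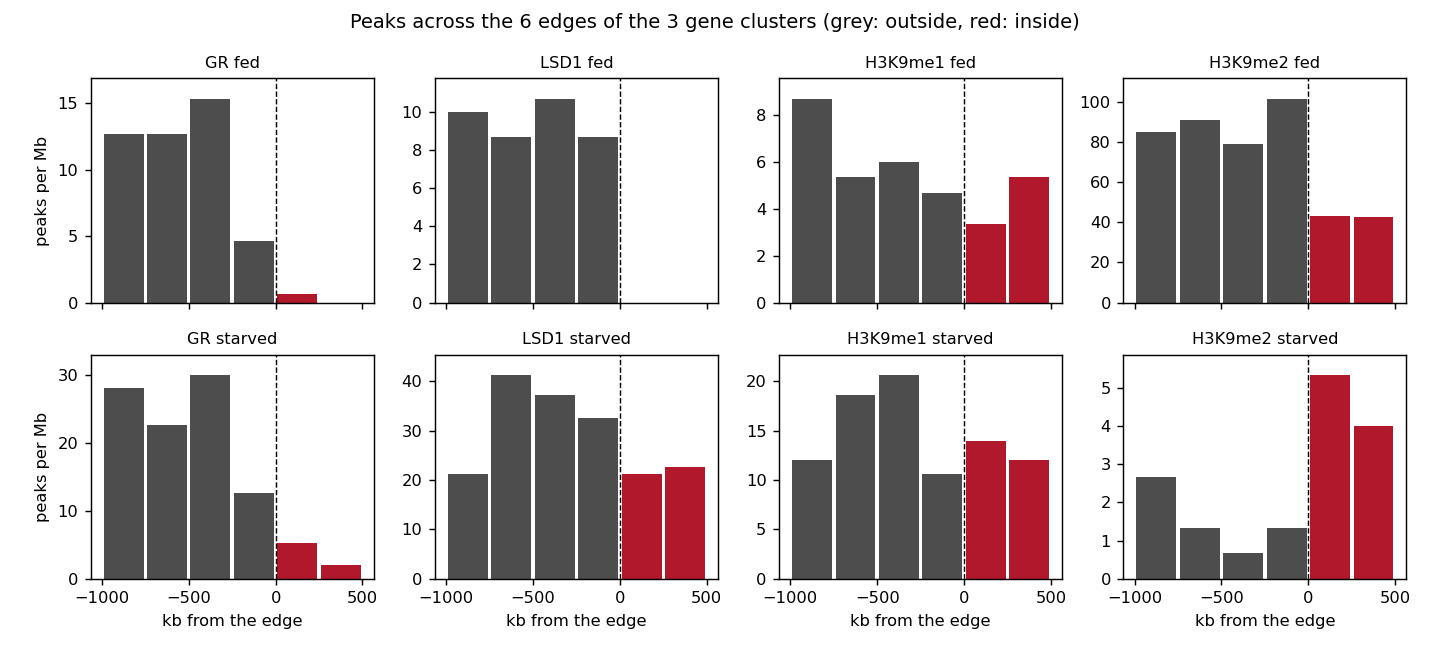
Peaks per Mb in bins of 250 kb from 1 Mb outside (grey) to 500 kb inside (red) the 6 edges of the 3 gene clusters, summed over the edges; the x axis is the distance from the edge in kb and the y axes differ between panels. LSD1 fed drops from 8.67 to 0 across the edge, H3K9me2 fed from 101 to 43.3, and H3K9me2 starved rises from 1.33 to 5.33.

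Peaks were also counted in the genes themselves. The transcribed bodies of the 287 genes made up 5.44% of the merged windows. They held 14 of 309 H3K9me2 fed peaks (4.53%), 9 of 109 H3K9me1 starved peaks (8.26%), 3 of 35 H3K9me1 fed peaks (8.57%) and 12 of 148 LSD1 starved peaks (8.11%). GR had 0 of 3 peaks there in fed and 2 of 22 in starved muscle, and LSD1 fed 0 of 1. The density in the bodies was above that of the remaining windows for LSD1 starved (32.1 against 20.9 per Mb), H3K9me1 starved (24.1 against 15.4), H3K9me1 fed (8.02 against 4.92) and GR starved (5.35 against 3.08). It was below for H3K9me2 fed (37.4 against 45.4) and H3K9me2 starved (2.67 against 3.85). The peaks in the bodies were few, and the difference was not tested.

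The promoters of the receptor genes were poor in CpG dinucleotides and rich in A and T. Their median GC content was 32.3%, against 49.95% over all genes, and their median ratio of observed to expected CpG was 0.111, against 0.442. The highest ratio among the 287 genes was 0.407, so all were CpG-poor by a limit of 0.5. Repeats covered a median of 20.9% of a promoter, against 14.4% over all genes. A median of 99.4% of the 50-base words of a receptor gene promoter occurred once in the genome, against 100%, so most promoters could be reached by uniquely mapped reads of this length.

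Other genes with CpG-poor promoters served as a closer reference than all genes, though not one matched for CpG content. Of 10748 such genes outside the olfactory receptor family, 6.72% had a GR fed, 13.5% a GR starved, 10.4% an LSD1 fed and 9.67% an LSD1 starved peak at the promoter. All 4 shares were below those of all genes and above the 95% intervals of the receptor genes. For H3K9me2 fed the share was 16.3%, again above the interval of the receptor genes, and for H3K9me1 fed and H3K9me2 starved it was 1.40% and 0.279%, inside their intervals. H3K9me1 starved stood at 2.63%, just past the upper limit of 2.49%. Within 30 kb, LSD1 starved reached 78.5% of the CpG-poor genes and H3K9me2 starved 8.53%. The limit that defined CpG-poor genes was loose, because the median ratio of all genes (0.442) also lay below it. The receptor genes had a median of 0.111 and a maximum of 0.407. Low CpG content was therefore not fully accounted for by this reference.

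Some short motifs were searched on both strands of the promoters. TAATTA, the core bound by many homeodomain proteins, was present in 170 of 287 receptor gene promoters (59.2%), against 21.9% of all promoters. TATAAA was present in 253 (88.2%), against 45.6%. CCCNNGGG, a core like that bound by early B-cell factors, was present in 19 (6.62%), against 32.8%. A GRE with up to 1 mismatch was present in 3 (1.05%), against 0.648%. Base composition was not accounted for, and the matches describe the letters only.

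The start sites bear on the promoter counts. The NM_ models of 215 of the 287 receptor genes (74.9%) started at the start codon, against 6.84% of all genes, so the annotated TSS may lie inside the true transcript. GENCODE M21 gave 632 TSSs for 280 of the genes. The farthest lay a median of 2.67 kb from the RefSeq TSS, and over 1 kb away in 235 genes. With these TSSs the promoter counts stayed at 0 for GR fed, GR starved and LSD1 fed, and were 5 for LSD1 starved, against 19.9% of all GENCODE genes.

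The rest of the family had low promoter counts too. Of 820 olfactory receptor genes on other chromosomes, 1 had a GR fed, 3 a GR starved, 0 an LSD1 fed and 13 an LSD1 starved peak at the promoter. Within 30 kb, GR fed reached 2.56% of them, LSD1 fed 3.78%, LSD1 starved 66.2%, H3K9me1 starved 55.7% and H3K9me2 starved 16.7%, and GR starved reached 123 of the 820. The exact intervals of both groups overlapped in 6 lists. They did not for LSD1 fed (upper limit 2.49% on chromosome 2, lower limit 2.58% elsewhere). Nor did they for H3K9me1 starved (60.4% to 71.7% on chromosome 2, 52.3% to 59.2% elsewhere). On chromosome 2 the 2 LSD1 fed genes shared 1 peak, and the H3K9me1 starved genes rested on 109 peaks. The intervals are therefore too narrow and do not show that the groups differ. Of 350 vomeronasal receptor genes, another large family of sensory receptors, 0 had a GR peak in either condition, 0 an LSD1 fed and 6 an LSD1 starved peak at the promoter. Of 1472 other NM_ genes of chromosome 2, 240 had a GR fed (16.3%) and 400 an LSD1 fed peak (27.2%) at the promoter, so chromosome 2 as a whole was not short of peaks.

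Genes that act with the receptors were set beside them. The list of olfactory signalling held 17 genes for the G protein, cyclase, channels, phosphodiesterases and receptor transporters of the odorant response. At the promoter GR fed marked 1 of 17 (Ric8b, an exchange factor for the olfactory G protein), GR starved and LSD1 starved 1 each (Gnb1, a G protein β subunit used in many tissues), and LSD1 fed 3 (Gnb1, Pde4a and Ric8b). H3K9me2 fed marked 4 of 17 (23.5%, against 24.4% of all genes), namely Ano2, Omp, Pde4a and Ric8b, and the other 3 lists marked 0. Of all genes GR marked 15.1% in fed and 26% in starved muscle, and LSD1 25.4% and 18%. Within 30 kb the counts were 5 for GR fed (29.4%, against 42.2% of all genes) and 13 for GR starved (76.5%, against 65.2%). They were 8 for LSD1 fed (47.1%, against 51.5%) and 13 for LSD1 starved (76.5%, against 81.8%).

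The list of receptor gene choice held 16 genes, among them transcription factors, heterochromatin factors and the gene of LSD1 itself (Kdm1a). GR marked 6 of 16 promoters in fed muscle (37.5%, against 15.1% of all genes). In starved muscle GR marked 4 (25%, against 26%), namely Atf5, Cbx5, Eif2ak3 and Ldb1. LSD1 marked 7 in fed (43.8%, against 25.4%) and 6 in starved muscle (37.5%, against 18%). The promoters of this list were mostly CpG-rich, with a median ratio of observed to expected CpG of 0.661. Of genes outside the olfactory receptor family with a ratio of at least 0.5, GR marked 26.8% in fed and 43.8% in starved muscle. LSD1 marked 46.1% and 29.9% of them. As genes of high use in muscle, 28 genes of the sarcomere and of muscle metabolism were counted. GR marked 19 of 28 of their promoters in fed (67.9%) and 17 in starved muscle (60.7%), and LSD1 19 (67.9%) and 13 (46.4%). All 4 shares were above those of all genes. Within 30 kb all 28 had a peak in both GR lists and in LSD1 starved, and 27 in LSD1 fed, with Neb as the exception. Of all genes these lists reached 42.2% (GR fed), 65.2% (GR starved), 81.8% (LSD1 starved) and 51.5% (LSD1 fed). H3K9me2 starved reached 1 of 28 within 30 kb (3.57%), against 64 of the 287 receptor genes (22.3%) and 7.45% of all genes. The lists are small, and no test was made.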

How the data were processed

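ChIP-seq libraries of fed and starved mouse skeletal muscle were grouped by the labels of the samples. Per the methods of the study, single-end 50-base reads were mapped to mm10 (GRCm38) with Bowtie, uniquely mapped reads were kept, reads in a blacklist of the human genome were removed, and broad peaks were called with MACS2 against input. The peak names carry Bowtie2. Each list deposited by the authors gives the fold enrichment as a ratio over input, and the p- and q-values as their −log10. The q-values reach past the limit of 0.01 in the methods, and the LSD1 starved list is many times longer than the one described in the text of the study, so it may be another version. Read depth is unknown. The labels give 10 weeks of age, and the text of the study another age.

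Peak midpoints on chromosomes 1 to 19, X and Y were assigned to windows around the TSSs of RefSeq NM_ transcripts (GRCm38.p6) with Python 3.11.15, pandas 2.3.3, NumPy 2.4.6, SciPy 1.17.1 and numba 0.67.0. Window assignment was tested on simulated peaks. Overlap meant at least 1 bp. Intervals are exact binomial or Poisson at 95%. A single NM_ TSS per gene was used for promoter sequence and distance profiles, and all NM_ TSSs elsewhere. Named genes were those with a GR or LSD1 promoter peak, the 2 highest folds per mark at promoters, the first 5 by position with the most and the fewest lists, and the highest-fold peak of each list. The receptor genes and lists were chosen with earlier results of these data known. Alternatives were a q-value of 0.01, a fold of 5, other windows, any base of a peak, covered base pairs and peaks merged within 1 kb. GENCODE TSSs and uniquely mappable length were added after the data were seen. The second H3K9me2 fed promoter peak by fold is not reported here.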

Additional observations from a re-analysis of the deposited data

How the results depend on the processing

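No paired analysis was possible because each group had 1 library and no test was made, and for the same reason no library could be left out. Promoter counts of 0 for GR fed and LSD1 fed stayed at 0 under every alternative run. With a promoter from 1 kb upstream to 1 kb downstream of a TSS the counts were 2 (GR starved), 11 (LSD1 starved), 10 (H3K9me1 starved), 26 (H3K9me2 fed) and 2 (H3K9me2 starved). With GENCODE TSSs they were 5 (LSD1 starved), 6 (H3K9me1 fed), 8 (H3K9me1 starved) and 2 (H3K9me2 starved). Of all GENCODE genes these lists marked 19.9%, 2.47%, 4.26% and 0.279%. With any base of a peak the count was 4 (H3K9me1 starved). The promoter counts at a q-value of 0.01 were 0 (LSD1 starved), 1 (H3K9me1 fed), 1 (H3K9me1 starved), 3 (H3K9me2 fed) and 0 (H3K9me2 starved). At a fold of 5 they were 0 in these 5 lists. The counts within 30 kb at a q-value of 0.01 were 8 (GR starved), 0 (LSD1 fed), 35 (LSD1 starved), 45 and 92 (H3K9me1 fed and starved), 138 (H3K9me2 fed) and 0 (H3K9me2 starved). At a fold of 5 they were 0 (both GR lists, LSD1 fed and H3K9me2 starved), 10 (LSD1 starved), 4 and 23 (H3K9me1 fed and starved) and 4 (H3K9me2 fed). Within 10 kb they were 2 and 23 (GR fed and starved), 0 and 101 (LSD1), 30 and 88 (H3K9me1), and 180 and 21 (H3K9me2). Fewer peaks or a narrower window lower every count by construction. Apart from the GENCODE TSSs, the share of all genes was not counted under these alternatives, so their counts cannot be set against a background. The density ratio at a q-value of 0.01 was 0.118 (GR starved), 0 (LSD1 fed) and 0 (H3K9me2 starved). At a fold of 5 it was 0 (both GR lists, LSD1 fed and H3K9me2 starved), 3.79 (LSD1 starved, from 3 peaks), 1.80 (H3K9me1 starved) and 0.502 (H3K9me2 fed). By base pairs covered it was 0.131 for GR starved. The excess of H3K9me2 starved therefore rested on peaks with a q-value above 0.01, and the LSD1 starved ratio moved to the other side of 1 on 3 peaks, for which the cause was not tested. Merging peaks within 1 kb and counting per uniquely mappable Mb moved no density ratio past its interval. With 1 library per group and unknown depth, an absent peak means only that none was called.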
